A study of Mus musculus with 6 samples.

Results

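The 31 genes described here make cholesterol, sense its level, or move sterols within and out of the cell. They were chosen by symbol from the 55487 genes of a table of RNA-seq read counts. No measured value entered the rule, although earlier results of these data were known when the list was made. All 31 were found, and all 31 had enough reads to enter the test, which 17165 genes did. The cells were mammary epithelial cells (MECs) of female BALB/c mice at 10 weeks of age, isolated from digested mammary tissue as the cells left after depletion with antibodies against CD45 (hematopoietic cells), CD31 (endothelial cells) and CD140a (fibroblasts). Libraries from 3 wild-type mice were compared with those from 3 IL-21isoTg mice, which carry a transgene for a membrane-bound isoform of the cytokine IL-21 expressed specifically in T cells, with 1 library per mouse. The paper states that females used for mammary tissue were virgin and that their estrous stages were randomized. The comparison asks how the sterol genes of the epithelium differed between these mice.

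Il21 itself, which checks the labels, had 0, 0 and 37 reads in wild-type mice 1 to 3 and 795, 216 and 131 reads in IL-21isoTg mice 1 to 3. The genotypes did not overlap, although wild-type mouse 3 held some Il21 reads. Total counts ran from 15902886 to 25719244 per mouse. Genes of salivary gland secretions (18 of 19 listed genes were found) took 23.7%, 6.77% and 16.2% of the counts of wild-type mice 1 to 3 and 23.3%, 5.19% and 41.8% of those of IL-21isoTg mice 1 to 3 (exact permutation test, both sides counted, p = 0.7). IL-21isoTg mouse 3 stood apart by this share and by its depth, so results that rest on it are given with and without it. Summed milk protein genes lay at 523 to 1733 CPM (read counts scaled to a common library size with TMM) in wild-type mice and at 8818 to 20366 CPM in IL-21isoTg mice. That was an exact p of 0.1, the smallest that 3 mice against 3 can give. Markers of the depleted cells remained, with Ptprc (CD45) at 2.16 to 9.40 CPM, Pecam1 (CD31) at 20.6 to 86.2 CPM and Pdgfra (CD140a) at 15.8 to 60.4 CPM across the 6 mice. The luminal epithelial markers Epcam, Krt8 and Krt18 were at 674 CPM or more in every mouse. In such bulk samples, fewer cells of a type and less RNA per cell cannot be told apart.

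Cholesterol is built from acetyl-CoA by way of mevalonate, farnesyl diphosphate and squalene. Its synthesis is governed by SREBP2, a membrane-bound transcription factor that SCAP escorts out of the endoplasmic reticulum when sterols are low and that INSIG proteins hold back when sterols are high. When sterols or their oxidized products accumulate, the nuclear receptors LXRα and LXRβ switch on export through ABC transporters. In the mammary gland, synthesis genes serve membrane growth and, in lactation, the sterol of milk fat.

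SREBP2 acts at sterol regulatory elements together with NF-Y, which binds CCAAT, and Sp1, which binds GC boxes. RefSeq promoters (GRCm38.p6) were held for 25 of the 31 genes. Those of Fdps, Fdft1, Sqle, Npc1, Stard4 and Abcg1 were not used here. The 250 bases before the transcription start were searched on both strands. Of the 6 windows shown next, 4 belong to synthesis genes (Hmgcs1, Mvk, Mvd and Nsdhl), which all lay above their mean level in wild-type mouse 1 and IL-21isoTg mouse 2. The others belong to Mylip and Abca1, which were lowest in wild-type mouse 1. Among windows not shown, that of Acat2 lacked CCAAT, and Acat2 also lay above its mean in both of those mice. Lss and Tm7sf2 had CCAAT but lay below their means in wild-type mouse 1. Whether the motifs bear on these levels was not tested. They are written 5′ to 3′ on the strand of the gene, with matches to CCAAT (or ATTGG, its reverse complement) to TCACNCCAC, a sterol regulatory element, and to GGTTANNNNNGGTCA, a variant LXR element, in capitals.
Hmgcs1 promoter, chr13:119690101-119690350, plus strand: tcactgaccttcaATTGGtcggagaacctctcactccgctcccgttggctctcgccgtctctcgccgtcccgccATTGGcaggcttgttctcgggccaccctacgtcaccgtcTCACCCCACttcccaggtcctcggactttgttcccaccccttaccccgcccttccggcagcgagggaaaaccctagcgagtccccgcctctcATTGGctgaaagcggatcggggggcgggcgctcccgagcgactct
Mvk promoter, chr5:114444019-114444268, plus strand: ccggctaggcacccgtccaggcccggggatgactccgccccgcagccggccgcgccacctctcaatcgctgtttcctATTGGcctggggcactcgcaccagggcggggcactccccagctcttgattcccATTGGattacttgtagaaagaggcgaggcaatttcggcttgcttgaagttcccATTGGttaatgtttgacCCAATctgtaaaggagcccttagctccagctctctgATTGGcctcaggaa
Mvd promoter, chr8:122443423-122443672, minus strand: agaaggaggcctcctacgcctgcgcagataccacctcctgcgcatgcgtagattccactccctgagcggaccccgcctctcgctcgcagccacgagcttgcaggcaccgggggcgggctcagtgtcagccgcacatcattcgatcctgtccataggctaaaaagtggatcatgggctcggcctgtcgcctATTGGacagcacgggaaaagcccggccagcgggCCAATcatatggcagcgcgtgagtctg
Nsdhl promoter, chrX:72918271-72918520, plus strand: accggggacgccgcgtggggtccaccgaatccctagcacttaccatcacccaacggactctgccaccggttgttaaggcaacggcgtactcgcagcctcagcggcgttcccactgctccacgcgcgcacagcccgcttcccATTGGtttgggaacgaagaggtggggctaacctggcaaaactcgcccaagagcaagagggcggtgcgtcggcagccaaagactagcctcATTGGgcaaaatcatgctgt
Mylip promoter, chr13:45389492-45389741, plus strand: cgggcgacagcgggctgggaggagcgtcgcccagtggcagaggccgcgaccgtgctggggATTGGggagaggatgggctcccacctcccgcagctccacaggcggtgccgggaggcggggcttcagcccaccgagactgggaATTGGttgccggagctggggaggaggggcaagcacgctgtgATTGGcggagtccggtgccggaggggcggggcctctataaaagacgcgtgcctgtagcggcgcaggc
Abca1 promoter, chr4:53159896-53160145, minus strand: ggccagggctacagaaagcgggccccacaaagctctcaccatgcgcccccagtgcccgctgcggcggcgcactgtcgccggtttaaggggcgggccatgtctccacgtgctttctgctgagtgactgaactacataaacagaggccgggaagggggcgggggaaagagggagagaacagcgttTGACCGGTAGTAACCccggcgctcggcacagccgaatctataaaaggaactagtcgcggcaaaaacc

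The Hmgcs1 window held 3 CCAAT matches and the only TCACNCCAC match among the 25 genes, 137 bases before the RefSeq start. TCACNCCAC was found for 1.26% of the tested genes with a promoter. The Mvk window held 5 CCAAT matches, those of Mvd and Nsdhl held 2 each, that of Mylip held 3, and that of Abca1 held 0. CCAAT stood in at least 1 promoter of 20 of the 25 genes (80%), compared with 37.5% of 27025 genes with a promoter in the reference and 39.8% of the 11786 of these that were tested here. It was present for 14 of 15 synthesis genes, Acat2 being the exception, and for 0 of 3 genes of the LXR and efflux group. The GC box GGGCGG was found for 22 of the 25 genes (88%), compared with 60.8% of the tested genes. The E-box CACGTG was found for 6 (24%), compared with 9.48% of the tested genes. GGTCANNNNNGGTCA, the core of the direct repeat that LXR binds, was found for 0 of the 25 and for 0.042% of the tested genes. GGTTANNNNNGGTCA, a variant searched after the Abca1 window had been read, was found for 1 of the 25, Abca1, 67 bases before the start, and for 0.059% of the tested genes. None of these motifs contains another, and a match is a description of the window, not a site shown to be bound.

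Levels between genes were compared as CPM per kilobase of annotated exons, where the exons include those of transcripts that retain introns. Srebf2, which encodes SREBP2, had the highest mean level over the 6 mice, at 23.2 CPM per kb, with 16.8 in the lowest mouse and 30.5 in the highest. Nr1h2 (LXRβ) followed at 22.7, Npc2, a carrier of lysosomal cholesterol, at 20.3, and Hmgcs1, the enzyme that makes HMG-CoA, at 17.3 CPM per kb. The ranges of these neighbours across mice overlapped, so their order was not separated. Nr1h3 (LXRα) lay well below its paralog, between 1.36 and 3.40 CPM per kb in single mice, while no mouse had Nr1h2 under 21.1. At the low end were Lss at 2.07, Stard4 at 1.77, Tm7sf2 at 1.25 and Abcg1 at 1.10 CPM per kb. The annotated exons of Lss came to 10787 bases, 2223 of them coding, and those of Tm7sf2 to 4403, 1316 of them coding. The places of Lss and Tm7sf2 thus depend on the exon length used. Fdps (chr3:89093588-89101959, minus strand, GRCm38), farnesyl diphosphate synthase, was the lowest at 0.228 CPM per kb, although it stands in the middle of the pathway.

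**Figure D1:**
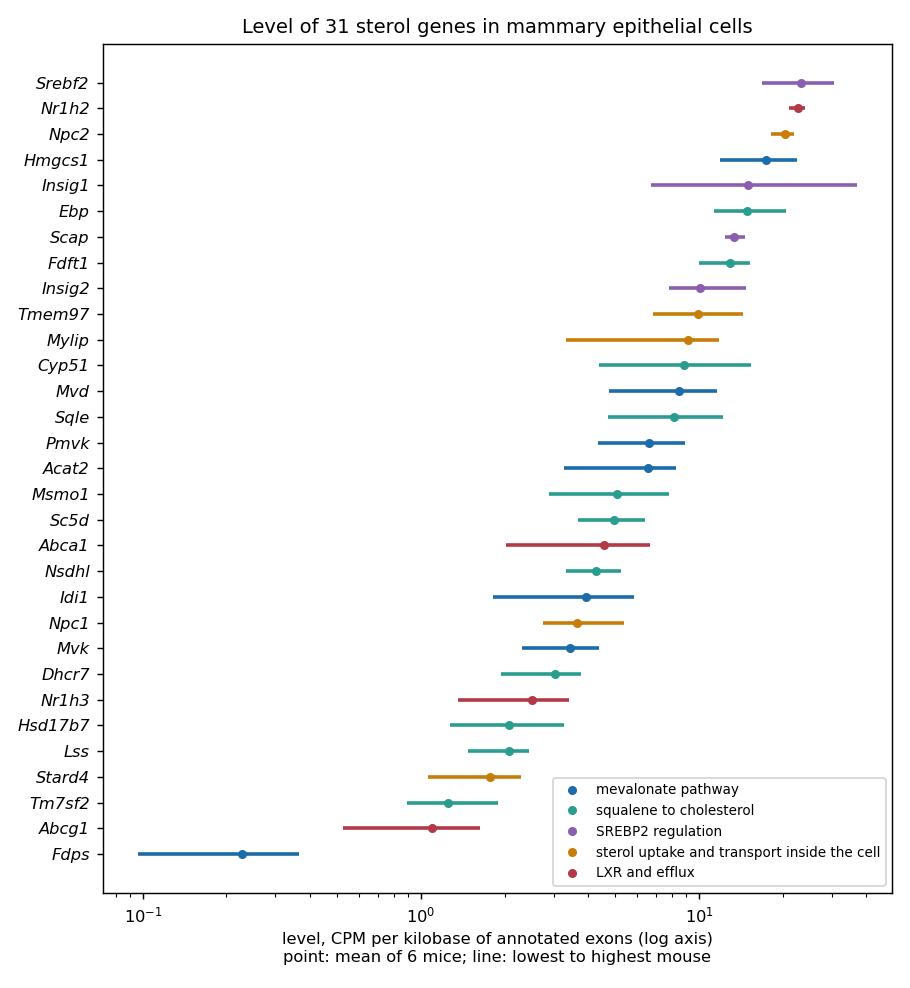
Level of each of the 31 sterol genes in CPM per kilobase of annotated exons on a log axis, with the mean of the 6 mice as a point, the lowest to the highest mouse as a line, and colours for the roles. Srebf2, Nr1h2 and Npc2 were at the top, Fdps lay alone at the bottom, and Insig1 had the widest line on the linear scale.

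The Fdps reads were few in every mouse, with 9, 32 and 22 in wild-type mice and 29, 31 and 5 in IL-21isoTg mice. Of the 1308 coding bases of Fdps, 1124 (85.9%) also belong to Gm43738, an annotated gene on the same strand, which was listed at 0 reads in all 6 mice. How reads on exons of 2 genes were counted is not given in the sources used here, so the Fdps level may leave out such reads. Its genotype difference rests on the remaining reads (log2 fold change -0.01, SE 0.64, or 0.28 without IL-21isoTg mouse 3). Smaller overlaps touch other genes. Acat2 shares 28.9% of its 100-base stretches with Acat3, Idi1 shares 15.8% with a pseudogene and Tmem97 shares 13.8% with a pseudogene, so reads could be split between these copies. Tm7sf2 shares 532 exon bases with Vps51 on the same strand. On the opposite strand, Fdft1 shares 774 exon bases with the abundant gene Ctsb, Scap shares 985 with 5830462I19Rik and Hmgcs1 shares 557 with Gm48342. The kit keeps the strand, but whether counting used it is not given in the sources used here. For every 100 reads of Hmgcs1, Gm48342 had between 21.1 and 26.1 in the 6 mice, a nearly fixed ratio.

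Between the genotypes, no sterol gene was called. At an adjusted p under 0.05 (edgeR quasi-likelihood test, Benjamini-Hochberg over 17165 genes), 0 of the 31 passed, and 0% of all genes tested passed. At an unadjusted p under 0.05 the count was 0 of 31, while 5.82% of all genes tested passed. DESeq2, the edgeR likelihood ratio test and limma-voom also gave 0 of 31 at both thresholds. The log2 fold changes of IL-21isoTg over wild-type mice ran from -0.53 for Tm7sf2 to 0.74 for Insig1, with 14 above and 17 below 0 and a median of -0.03. The median over all genes tested was -0.02. Of the 31 genes, 28 (90.3%) lay within 0.5 of 0 on the log2 scale, compared with 77.6% of all genes tested. The 95% interval excluded both a doubling and a halving for 16 of the 31 genes, and for 9178 of the 17165. For the other 15 a change of that size was not excluded at this spread between mice.

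**Figure D2:**
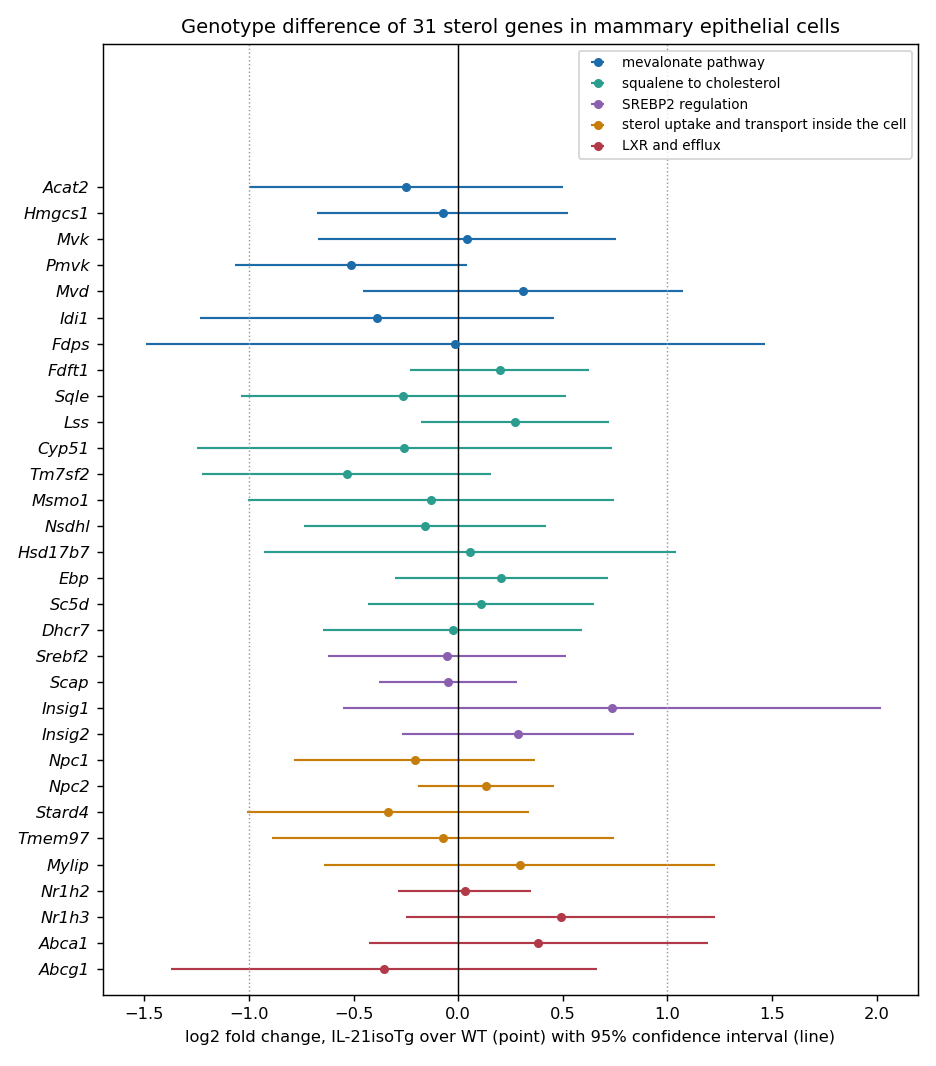
Log2 fold change of IL-21isoTg over wild-type mice for each of the 31 genes, with colours for the roles. Lines give its 95% confidence interval, derived from the F statistic of the edgeR test, and dotted lines mark a halving and a doubling. Every interval crosses 0, and the widest belong to Fdps and Insig1.

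The mevalonate genes carry acetyl-CoA to farnesyl diphosphate. Their median log2 fold change was -0.07 over 7 genes, 2 above and 5 below 0. Hmgcs1 lay at 103, 81.1 and 61.1 CPM in the wild-type mice and at 54.9, 94.7 and 83.3 CPM in the IL-21isoTg mice. Wild-type mouse 1 was highest and IL-21isoTg mouse 1 lowest, and the genotypes overlapped fully (log2 fold change -0.07, SE 0.26, edgeR adjusted p = 0.967). Pmvk, phosphomevalonate kinase, had the smallest p of the 31 genes. It was measured at 15.3, 13.8 and 10.8 CPM in wild-type mice and at 7.44, 11.0 and 9.51 CPM in IL-21isoTg mice. Only IL-21isoTg mouse 2 reached into the wild-type range, and the log2 fold change was -0.51 with a 95% interval from -1.07 to 0.04 (unadjusted p = 0.0664, adjusted p = 0.809, edgeR). Idi1, the isomerase of isopentenyl diphosphate, showed the widest range of the mevalonate genes after Fdps, from 6.36 CPM in IL-21isoTg mouse 1 to 20.4 CPM in wild-type mouse 1. Mvd, the decarboxylase, had values of 21.6, 8.84 and 11.9 CPM against 18.8, 19.1 and 14.5 CPM. Its log2 fold change of 0.31 depended on single wild-type mice, being 0.77 without mouse 1 (adjusted p = 0.676, edgeR) and 0.06 without mouse 2. Mvk, mevalonate kinase, had a log2 fold change of 0.04 (SE 0.31), or -0.13 without IL-21isoTg mouse 3. Acat2, the acetyl-CoA thiolase, had one of -0.25 (SE 0.33), or 0.05 without that mouse, in which Acat2 was lowest at 8.30 CPM.

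The genes from squalene to cholesterol had a median of -0.03 over 11 genes, 5 above and 6 below 0, or 0.25 without wild-type mouse 1. Lss (chr10:76531588-76557138, plus strand, GRCm38), lanosterol synthase, which closes squalene epoxide into the first sterol, was the only one of the 31 genes whose genotypes did not overlap. It was measured at 15.9, 22.5 and 22.3 CPM in wild-type mice and at 22.7, 26.4 and 24.2 CPM in IL-21isoTg mice. The lowest IL-21isoTg mouse stood just above the highest wild-type mouse, and the log2 fold change was 0.27 (SE 0.20, edgeR adjusted p = 0.829), or 0.14 without wild-type mouse 1. Over all genes tested, 12.1% had genotypes that did not overlap, against this 1 of 31. Sqle, squalene epoxidase, lay at 67.7, 40.9 and 38.8 CPM and at 26.0, 59.7 and 37.1 CPM. Cyp51, the lanosterol demethylase, lay at 68.1, 32.6 and 26.4 CPM and at 19.2, 48.7 and 38.3 CPM. Both had their highest value in wild-type mouse 1 and their lowest in IL-21isoTg mouse 1. The SD within each genotype exceeded the difference between the means. For Sqle the wild-type and IL-21isoTg means were 49.2 and 41.0 CPM (SDs 16.1 and 17.2). For Cyp51 they were 42.3 and 35.4 CPM (SDs 22.5 and 14.9). The log2 fold changes were -0.26 (SE 0.34) for Sqle and -0.26 (SE 0.43) for Cyp51.

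The enzymes that follow Cyp51 had mostly small differences. Tm7sf2, a sterol reductase, was at 4.78, 6.34 and 8.32 CPM in wild-type mice and at 4.45, 3.91 and 5.13 CPM in IL-21isoTg mice. IL-21isoTg mouse 3 lay above wild-type mouse 1, and the log2 fold change of -0.53 (SE 0.30) had an edgeR adjusted p of 0.809. Msmo1 and Nsdhl, which remove the methyl groups at carbon 4, had log2 fold changes of -0.13 (SE 0.38) and -0.16 (SE 0.25). Hsd17b7, a ketoreductase of the same step, ranged from 6.49 to 16.7 CPM and had a log2 fold change of 0.06, or -0.19 without IL-21isoTg mouse 3. Ebp, the sterol isomerase, had a log2 fold change of 0.21 (SE 0.22), and Sc5d, the sterol desaturase, one of 0.11 (SE 0.23). Dhcr7, the reductase that ends the pathway, had one of -0.03 (SE 0.27), and Fdft1, squalene synthase at its head, one of 0.20 (SE 0.19).

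**Figure D3:**
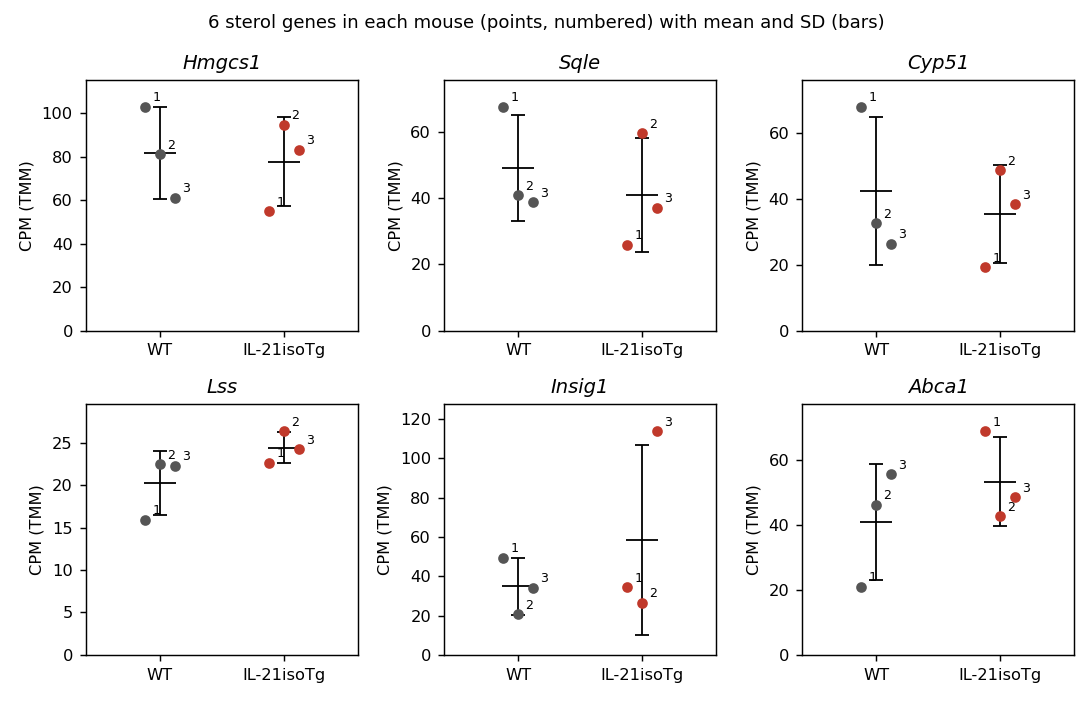
CPM of Hmgcs1, Sqle, Cyp51, Lss, Insig1 and Abca1 in each mouse (numbered points), with the mean of 3 mice as a long dash and the SD as bars, on axes that start at 0. The synthesis genes Hmgcs1, Sqle and Cyp51 put wild-type mouse 1 and IL-21isoTg mouse 2 high, Insig1 has 1 high point at 114 CPM, and Abca1 is lowest in wild-type mouse 1.

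The SREBP2 regulators had a median log2 fold change of 0.12 over 4 genes, or -0.10 without IL-21isoTg mouse 3. Scap, the SREBP2 escort, differed by 1.18 times between its highest and lowest mouse, at 92.1 to 109 CPM. Srebf2 was at 219.5, 142.7 and 147.0 CPM in wild-type mice and at 121.0, 193.8 and 176.0 CPM in IL-21isoTg mice. It followed the order of its target Hmgcs1 at both ends, highest in wild-type mouse 1 and lowest in IL-21isoTg mouse 1 (log2 fold change -0.05, SE 0.25). Insig2 was at 27.2, 36.6 and 30.7 CPM and at 36.2, 28.1 and 51.1 CPM, with its highest value in IL-21isoTg mouse 3 (log2 fold change 0.29, SE 0.24, and 0.04 without that mouse). Insig1 (chr5:28071363-28078662, plus strand, GRCm38), an INSIG protein that is itself an SREBP target, varied most of all 31 genes, by 5.50 times. Its levels were 49.6, 20.7 and 34.3 CPM in wild-type mice and 34.4, 26.6 and 114 CPM in IL-21isoTg mice. The log2 fold change of 0.74 (SE 0.56, edgeR adjusted p = 0.832) rested on IL-21isoTg mouse 3 and was -0.18 without it.

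Insig1 did not follow the synthesis genes. The mouse with the highest Insig1 was the mouse with the highest salivary gland share (41.8%), and the mice with the lowest, wild-type mouse 2 and IL-21isoTg mouse 2, had the lowest shares (6.77% and 5.19%). With the log2 of this share as a covariate the Insig1 difference was 0.40 (edgeR adjusted p = 0.846). Soat1, which esterifies cholesterol for storage and was singled out after its values were seen, ran the same way, at 55.1, 19.0 and 33.0 CPM in wild-type mice and 40.5, 19.99 and 120 CPM in IL-21isoTg mice. The part of salivary gland RNA in either level was not tested further.

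Genes of sterol uptake and transport inside the cell had a median of -0.07 over 5 genes, which turned to 0.11 without wild-type mouse 1 and to 0.12 without IL-21isoTg mouse 3. Npc1 and Npc2, which pass cholesterol out of the lysosome, were unlike in steadiness. Npc1 ranged from 31.1 to 61.0 CPM, both ends in wild-type mice, and Npc2 only from 98.4 to 119 CPM, with log2 fold changes of -0.21 (SE 0.25) and 0.13 (SE 0.14). Stard4, a cytosolic sterol carrier, was at 12.8, 11.8 and 8.41 CPM and at 5.95, 9.49 and 10.8 CPM (log2 fold change -0.34, SE 0.29). Tmem97, an endoplasmic reticulum protein that binds NPC1, ranged from 9.40 to 19.8 CPM. Its log2 fold change was -0.07 (SE 0.35), or 0.12 without IL-21isoTg mouse 3. Mylip, the ubiquitin ligase that LXR induces to remove lipoprotein receptors, was at 10.7, 38.2 and 30.6 CPM and at 34.4, 35.4 and 27.6 CPM. A single low value, that of wild-type mouse 1, set its direction: the log2 fold change was 0.29 (SE 0.40) with that mouse and -0.07 without it.

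The LXR and efflux genes had a median of 0.21 over 4 genes, 3 above and 1 below 0. Nr1h2 was the steadiest of all 31 genes, at 70.6 to 80.7 CPM, a ratio of 1.14 (log2 fold change 0.03, SE 0.14). Nr1h3, the receptor of macrophages, liver and fat, was at 3.43, 6.29 and 6.03 CPM in wild-type mice and at 7.77, 8.56 and 5.69 CPM in IL-21isoTg mice. IL-21isoTg mouse 3 fell within the wild-type range (log2 fold change 0.49, SE 0.32, edgeR adjusted p = 0.820, and 0.27 without wild-type mouse 1). Abca1, the exporter of cholesterol to apolipoproteins, was at 20.97, 46.2 and 55.6 CPM and at 68.9, 42.6 and 48.5 CPM. Here too wild-type mouse 1 was lowest, and the log2 fold change was 0.38 (SE 0.35) with it and 0.08 without it. Abcg1, the exporter to high-density lipoprotein, was at 4.78, 10.4 and 11.9 CPM and at 10.1, 7.04 and 3.82 CPM, with a log2 fold change of -0.35 (SE 0.44), or -0.06 without IL-21isoTg mouse 3.

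Mice of the same genotype differed in the synthesis genes, often in the same direction. Of the 18 synthesis genes, 11 were highest in wild-type mouse 1 and 4 in IL-21isoTg mouse 2, while 8 were lowest in IL-21isoTg mouse 1. In log2 CPM, 14 of the 18 lay above their own mean in wild-type mouse 1 and 16 in IL-21isoTg mouse 2, but 4 in wild-type mouse 3 and 5 in IL-21isoTg mouse 1. Summed, the 18 genes gave 577, 417 and 358 CPM in wild-type mice and 344, 524 and 442 CPM in IL-21isoTg mice (exact permutation test, both sides counted, p = 0.9). Highest and lowest mice were thus of different genotypes, and neither genotype was uniform. The exceptions included Lss and Fdps, lowest in the mouse where most synthesis genes were highest, and Tm7sf2, lowest in IL-21isoTg mouse 2.

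**Figure D4:**
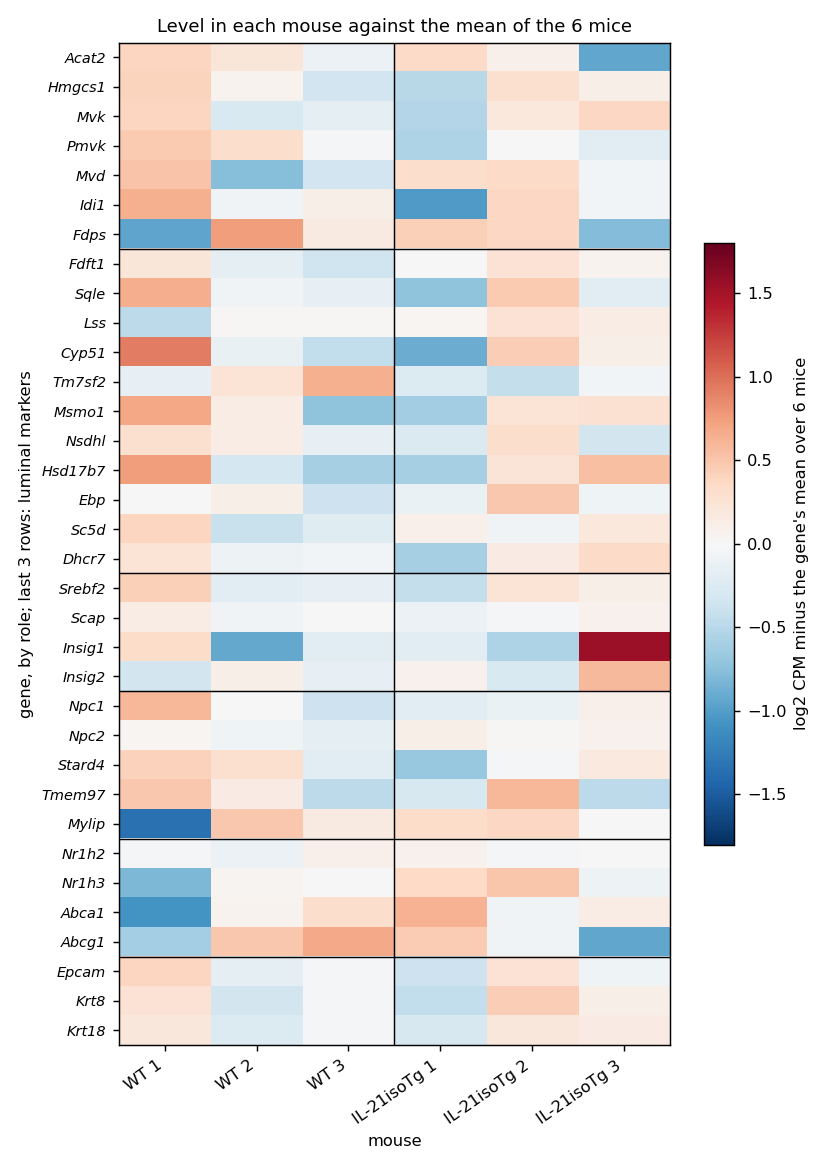
Log2 CPM of each of the 31 genes in each mouse minus the gene's mean over the 6 mice, ordered by role, with the luminal markers Epcam, Krt8 and Krt18 in the last 3 rows. Red is above and blue below the gene's mean. Most synthesis rows are red in wild-type mouse 1 and IL-21isoTg mouse 2 and blue in IL-21isoTg mouse 1, and the darkest cell is Insig1 in IL-21isoTg mouse 3.

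Some luminal markers had their highest and lowest levels in the same mice as the synthesis genes. Epcam, an epithelial adhesion protein, was at 1144, 778 and 862 CPM in wild-type mice and at 674, 1054 and 827 CPM in IL-21isoTg mice, again highest in wild-type mouse 1 and lowest in IL-21isoTg mouse 1. Krt8, a luminal keratin, was at 2657, 1767 and 2155 CPM and at 1630, 3009 and 2373 CPM, highest in IL-21isoTg mouse 2 and lowest in IL-21isoTg mouse 1. Both were picked after their values were known. The summed luminal list (9 of 9 genes detected) followed less closely, at 7328, 6362 and 7293 CPM in wild-type mice and 5267, 9176 and 6500 CPM in IL-21isoTg mice (exact p = 1). Wild-type mice 1 and 3 were alike in it, while their synthesis sums were 577 and 358 CPM. Between genotypes, 5 of the 9 genes had a log2 fold change above 0 and 4 below, from -0.93 to 0.70. The LXR and efflux genes ran the other way, at 104, 133 and 154 CPM summed in wild-type mice and 167, 132 and 134 CPM in IL-21isoTg mice (exact p = 0.5). Fibroblast markers (9 of 9 detected) were likewise lowest in wild-type mouse 1 and highest in IL-21isoTg mouse 1, at 2022, 3572 and 3223 CPM against 5128, 4453 and 4458 CPM (exact p = 0.1, the smallest possible). The part of cell composition in these sterol gene levels was not tested.

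**Figure D5:**
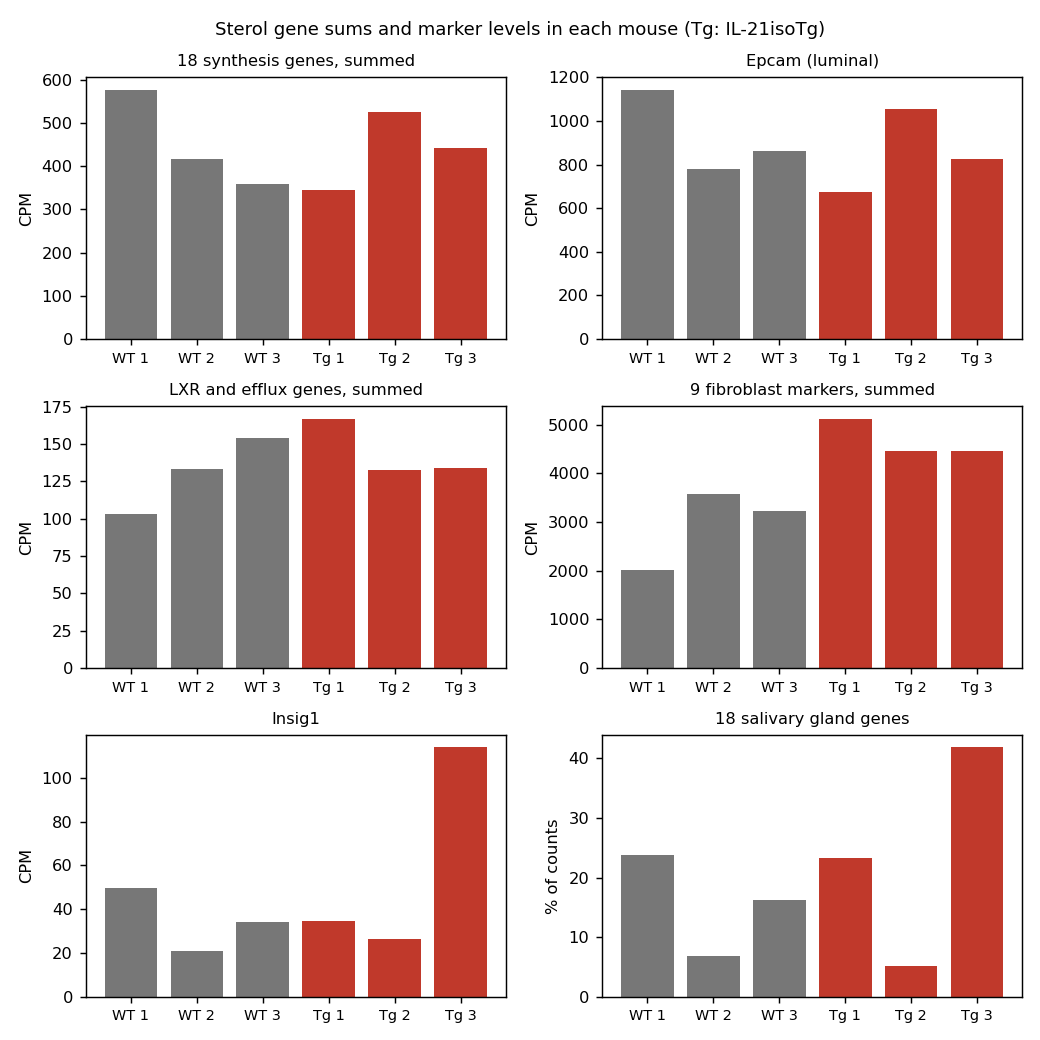
Bars from 0 give, for each mouse, the summed CPM of the 18 synthesis genes, Epcam, the summed LXR and efflux genes, the summed fibroblast markers, Insig1, and the percentage of counts on salivary gland genes, with wild-type mice in grey and IL-21isoTg mice in red. The synthesis sum and Epcam share their highest and lowest mice, the LXR and efflux sum and the fibroblast markers show the reverse ends, and Insig1 and the salivary share both peak in IL-21isoTg mouse 3.

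Among 36 further genes of sterol handling, 35 were tested, 21 lay above and 14 below 0, and 0 were called (edgeR adjusted p under 0.05). At an unadjusted p under 0.05 the count was 1, against 5.82% of all genes tested, and 3 (Ch25h, Nfya and Sp1) had genotypes that did not overlap, against 12.1%. The gene with that p was Ch25h (chr19:34473778-34475164, minus strand, GRCm38), cholesterol 25-hydroxylase, which makes 25-hydroxycholesterol, an oxysterol that holds SREBP2 back through INSIG and that immune cells produce. It was at 2.07, 0.769 and 0.810 CPM in wild-type mice and at 5.95, 4.17 and 4.76 CPM in IL-21isoTg mice. Every IL-21isoTg mouse was above every wild-type mouse, with a log2 fold change of 2.02 (SE 0.47), an unadjusted p of 0.00275 and an adjusted p of 0.677 (edgeR quasi-likelihood test). The log2 fold change ran from 1.78 without wild-type mouse 2 to 2.66 without wild-type mouse 1. The call depended on the tool: the adjusted p was 0.0132 by DESeq2 and 0.0327 by the edgeR likelihood ratio test. Ch25h rested on 16 to 143 reads per mouse and shares 159 exon bases with Gm26902, a noncoding RNA on the opposite strand. Gm26902 had 17, 17 and 0 reads in wild-type mice and 52, 36 and 5 reads in IL-21isoTg mice. Macrophage markers (12 of 12 detected) summed to 170, 233 and 203 CPM in wild-type mice and 328, 371 and 150 CPM in IL-21isoTg mice (exact p = 0.4). The macrophage sum was lowest in IL-21isoTg mouse 3, where Ch25h was at 4.76 CPM. The fibroblast and milk protein sums, like Ch25h, were higher in every IL-21isoTg mouse than in every wild-type mouse. The other marker sums overlapped between genotypes. The part of any cell type in the Ch25h level was not tested.

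The other 4 genes with the smallest p were Nfya, Lipa, Sp1 and Lrp1. Nfya, the subunit of NF-Y that contacts CCAAT, was at 36.7, 34.2 and 38.6 CPM and at 29.0, 31.6 and 24.3 CPM, with no overlap between genotypes (log2 fold change -0.36, SE 0.16, unadjusted p = 0.0558, adjusted p = 0.809, edgeR). Sp1, which binds the GC box, was at 99.4, 100.1 and 105 CPM and at 73.8, 88.7 and 86.0 CPM, also without overlap (log2 fold change -0.30, SE 0.14, adjusted p = 0.809, edgeR). The other NF-Y subunits overlapped between genotypes, with log2 fold changes of -0.37 (SE 0.21) for Nfyb and -0.05 (SE 0.17) for Nfyc. The synthesis genes with CCAAT and GGGCGG in their windows also overlapped, Lss excepted. Whether the levels of these factors bear on the synthesis genes was not tested. Lipa, the lysosomal acid lipase that frees cholesterol from its esters, ranged by 8.19 times, at 19.8, 73.8 and 55.3 CPM and at 157, 162 and 38.5 CPM. IL-21isoTg mouse 3 fell within the wild-type range (log2 fold change 1.27, SE 0.60, adjusted p = 0.809, edgeR). The 3 mice with the highest Lipa, IL-21isoTg mice 2 and 1 and wild-type mouse 2, were also the 3 with the highest macrophage marker sums. The same 3 mice had the highest basal, adipocyte and endothelial marker sums, but were not the top 3 for the fibroblast or luminal sums. The part of any cell type in the Lipa level was not tested. Lrp1, a large lipoprotein receptor, was at 120, 208.6 and 191 CPM and at 268, 243 and 204 CPM, with a log2 fold change of 0.46 (SE 0.24, adjusted p = 0.809, edgeR).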

How the data were processed

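Poly(A)-selected, directional RNA-seq libraries were made from mammary epithelial cells of 3 wild-type and 3 IL-21isoTg mice. The authors deposited raw read counts per gene and mouse, without normalization; the submitters' processing notes name the build mm10 and Trimmomatic 0.38, HISAT2 2.1.0 and featureCounts 1.6.3. How reads on overlapping genes, repeated sequence or the antisense strand were counted is not given in the sources used here. The deposited size-factor-scaled table and the authors' table of fold changes and p-values were not used. From the counts, genes were filtered (edgeR filterByExpr, minimum count 10, minimum total 15), scaled with TMM and tested with edgeR 4.0.16 (quasi-likelihood, robust dispersions, genotype as the only term) in R 4.3.3, with Benjamini-Hochberg adjustment over 17165 genes. Steps were tested on simulated data. The edgeR test returns no SE, so each SE was derived from the log2 fold change and the F statistic. The 95% intervals were built from it with a t quantile, and are approximate. CPM used TMM library sizes, and log2 CPM a prior count of 2. Total counts were 15902886 to 25719244, and a floor of 3 counts was 0.112 to 0.280 CPM, which covers counting error only. Summed levels were compared by exact permutation tests. Positions came from the GRCm38 annotation and promoters from RefSeq (GRCm38.p6). The replicate numbers of the labels were not taken as pairs. Alternatives were other scalings, filters and tests (DESeq2 1.42.0, limma-voom 3.58.1, likelihood ratio), a replicate block, the salivary gland share as a covariate, and leaving out each mouse.

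Named were all 31 genes, the 5 of 36 other sterol genes with the smallest p, Il21, and markers of depleted cells; Soat1, Epcam, Krt8, Krt18 and genes that overlap a member were added once values were known. The members, the marker lists (luminal, milk protein, macrophage, fibroblast, salivary gland, and basal, adipocyte and endothelial) and the tests were chosen with earlier results of these data known. Matplotlib 3.10.9 drew the plots.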

Additional observations from a re-analysis of the deposited data

How the results depend on the processing

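Of the 31 sterol genes, 0 were called under any of the 17 alternatives, and the smallest adjusted p of any of them was 0.560 (Pmvk, edgeR without IL-21isoTg mouse 2). At an unadjusted p under 0.05 there were 3 without wild-type mouse 1 (Mvd, log2 fold change 0.77, Fdft1, 0.39, and Tm7sf2, -0.70) and 1 without IL-21isoTg mouse 2 (Pmvk, -0.65). The sign of the difference turned under at least 1 alternative for 18 of the 31 and under none for 13. Over all genes, 0 were called higher by the quasi-likelihood test, compared with 14 without a filter on low counts, 72 by DESeq2 and 52 by the likelihood ratio test, and 0 to 6 when 1 mouse was left out (6 without wild-type mouse 3). Genes called lower numbered 0, compared with 8 by DESeq2, 13 by the likelihood ratio test and 1 with the salivary share as a covariate. Of the other sterol genes, 1 (Ch25h) was called higher by DESeq2 and 1 by the likelihood ratio test; the cause was not tested. Its adjusted p ran from 0.0132 to 0.994 over the alternatives. When 1 mouse was left out, the mevalonate median ran from -0.25 to -0.08, that of squalene to cholesterol from -0.19 to 0.25, that of SREBP2 regulation from -0.10 to 0.23 and that of LXR and efflux from 0.06 to 0.34. The median of the uptake and transport genes, -0.07, ran from -0.29 to 0.12 (0.11 without wild-type mouse 1, -0.29 without wild-type mouse 3 and 0.12 without IL-21isoTg mouse 3). Fdps was not tested when at least 10 counts were required in every mouse. No scaling moved the median of all genes by over 0.1. Marker sums for basal cells (exact p = 0.2), adipocytes (0.2) and endothelial cells (0.2) did not reach the smallest p possible. Depth limits Fdps in particular, with 5 reads in its lowest mouse, and IL-21isoTg mouse 3 has the least of it, at 15902886 counts in total.

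With the replicate block, 0 genes were called and 657 had an unadjusted p under 0.05, compared with 999 without it; the Insig1 difference was 0.52, the role medians were -0.07 (mevalonate), -0.06 (squalene to cholesterol), 0.11 (SREBP2 regulation), -0.11 (uptake and transport) and 0.24 (LXR and efflux), and no call changed. Deviations of same-numbered mice correlated at -0.22, 0.07 and -0.06 across genes, and none of the wild-type mice correlated best with the mouse of its own number. With so few mice, and over all genes at once, these values cannot show whether the numbers mark pairs.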
